A study of Mus musculus with 11 samples.

Results

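The protocadherin family was followed through muscle RNA of old mice as the 47 rows, of 18269 in the table, whose gene symbol begins with Pcdh, names holding -ps left out. These rows were 1 alpha, 15 beta, 22 gamma and 9 non-clustered protocadherins, out of 13, 22, 22 and 12 such genes in the GENCODE M21 annotation. The remaining genes are not analysed here. The family came to attention through Pcdhga10, a gamma gene whose level differed between young serum and saline, so that comparison is described for the gamma cluster and not tested.

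RNA came from the tibialis anterior, a muscle of the shin, of C57BL/6 mice aged 21 to 24 months in an injury model. Of 11 libraries of total RNA, 4 came from mice injected with young serum (replicates 1 to 4), 3 from mice injected with young serum depleted of extracellular vesicles (EV-depleted serum, replicates 2 to 4) and 4 from mice injected with saline (replicates 2, 3, 4 and 6). The vesicles (EVs) are membrane particles released by cells. Whether every library was its own animal is not stated in the labels, and the p-values therefore reflect variation among these libraries, some of which may be technical.

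Protocadherins are cell adhesion proteins of the cadherin superfamily that bind like proteins on neighbouring cells. In the alpha and gamma clusters, each gene joins its own large variable exon, which encodes the extracellular and membrane-spanning part, to small constant exons that the whole cluster shares and that encode a common cytoplasmic end. Beta genes are single exons with no constant part, and the non-clustered genes lie outside the clusters and have their own cytoplasmic ends. In mouse neurons the mix of clustered protocadherins on a cell lets its branches tell self from other, and promoter choice there depends on CTCF and cohesin. Their role in muscle is less well described.

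The gamma genes share much of their transcript. The cluster lies on the plus strand of chromosome 18, between 37661793 and 37841873 in mm10, and Pcdhga10 runs from 37746993 to the same end. The 3 constant exons measure 59, 89 and 1971 bases, and together they make up 44.8% of the 4732 exonic bases of Pcdhga10. The other 2613 bases, its variable exon, are overlapped over their whole length by the antisense gene Gm26672, which averaged 0.103 CPM over the 11 libraries. Pcdhgc3 has 1559 bases opposite the antisense gene BC037039, at 0.184 CPM, and Pcdh7 has 2235 bases opposite 4932441J04Rik, at 0.234 CPM. The sources used here do not say whether reads were counted by strand, and without strand the reads of a gene and its antisense partner cannot be told apart.

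**Figure D1:**
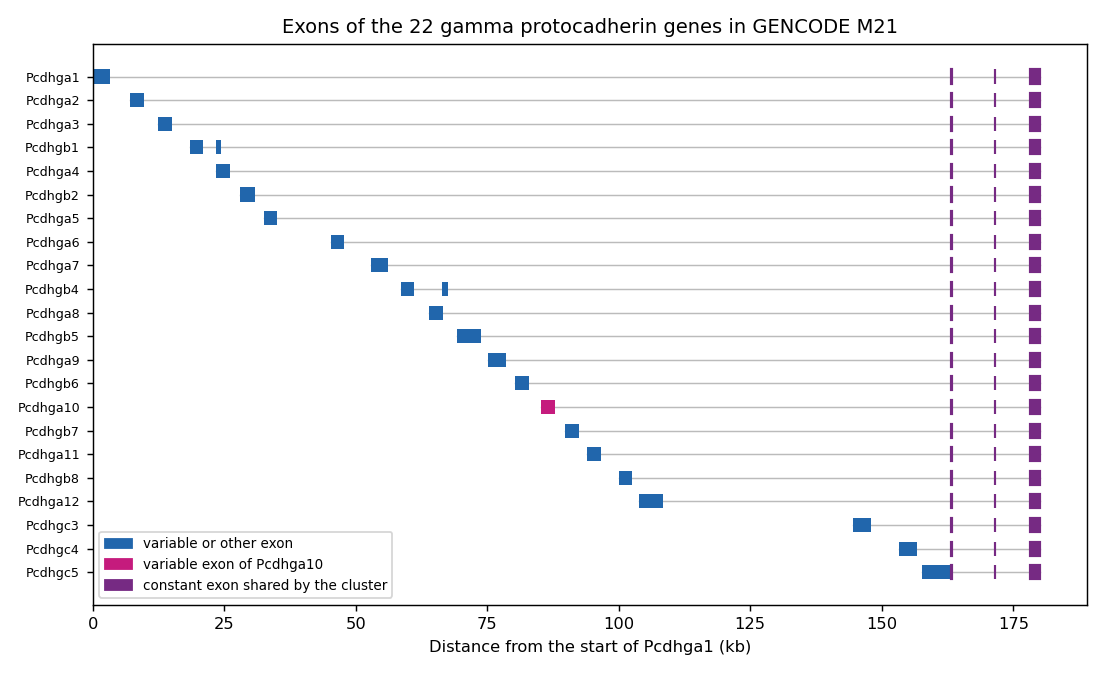
Exons of the 22 gamma genes, plotted against distance from the start of Pcdhga1 in kilobases, with genes in order along the cluster from top to bottom. Variable and other exons (blue, Pcdhga10 in pink) differ between genes, while the 3 constant exons at the right (purple, drawn with an outline so that the 59 and 89 base exons are visible) are common to the cluster.

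The values themselves differed in kind between clusters. Among values from 0.01 to 1 CPM (counts per 1e+06), 28.6% of those of gamma genes were whole multiples of 1 read within 0.1 reads (36 of 126 values), against 94.8% for beta genes (147 of 155) and 100% for non-clustered genes (42 of 42). The 1 alpha row, Pcdha4, had 0 of 3. In Pcdha4, 91.4% of the exonic bases are shared with other alpha genes or the predicted gene Gm42416. Beta genes share none except Pcdhb21 and Pcdhb22, which overlap by 455 bases. A single gamma value therefore rests in part on how the authors' counting divided reads of the shared exons, and only the sum over the cluster is free of a division within it. The predicted genes Gm37013, Gm37388, Gm38182 and Gm42416 also overlap gamma exons on the same strand. Reads divided with those genes would leave the sum dependent on the division too. How the reads were divided was not tested.

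The whole series set these limits on the family. Low values moved in steps that place the depth at 36.4 to 42.2 times 1e+06 reads in each library, so 1 CPM stands for about 39.3 reads. The labelled tissue carried its markers: the sum of 6 fibre genes was 115587 to 153271 CPM in each library, and none was below 388 CPM. Saline replicate 4 had a summed adipocyte marker level of 2684 CPM, against 80.3 to 325 CPM in the other 10 libraries, and saline replicate 6 had a summed slow fibre level of 4513 CPM, against 124 to 1688 CPM in the others. Sums, counts and single differences set against saline that moved most when one of these libraries was left out are therefore given without it as well. In bulk muscle RNA, fewer cells of a type and less RNA per cell cannot be told apart.

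By level per kilobase of exon, averaged over the 11 libraries, the C-type gamma genes Pcdhgc4 and Pcdhgc3 led the family. Pcdhgc5, also of the C type, was number 45 of the 47 members at 0.018 CPM per kilobase. Pcdhgc4 stood at 3.65 CPM per kilobase and Pcdhgc3 at 1.96 CPM per kilobase, followed by the non-clustered Pcdh1 at 1.35 and Pcdh12 at 0.73 CPM per kilobase. Among the 19 gamma genes of the A and B types, Pcdhgb2 (0.56 CPM per kilobase), Pcdhgb6 (0.49) and Pcdhgb7 (0.43) were highest and Pcdhga9 was lowest (0.033). Pcdhga10, at 0.25 CPM per kilobase, was number 5 of these 19 and number 12 of the 47 members. The median beta gene reached 0.058 CPM per kilobase and Pcdha4 0.0051. For alpha and gamma genes this measure counts the shared exons in the length.

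Only 21 members had at least 1 CPM in at least 3 libraries and entered the tests: 15 gamma genes, 5 non-clustered genes, 1 beta gene and 0 alpha genes. Pcdhga6 and Pcdhgb5 entered with 4 libraries at 1 CPM, and Pcdhga12 stayed out with 2. The 26 members below this filter are described by their values alone.

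The 22 gamma genes summed to 55.2, 52.5, 47 and 50.7 CPM in young serum replicates 1 to 4, to 48.0, 38.2 and 54.9 CPM in EV-depleted serum replicates 2 to 4, and to 48.2, 43.4, 90.2 and 42.5 CPM in saline replicates 2, 3, 4 and 6. The groups overlapped, and saline replicate 4 stood apart at the top. The log2 ratio of group means was -0.13 for young serum over saline and -0.25 for EV-depleted serum over saline. Without saline replicate 4 these ratios were 0.20 and 0.07, so the sign depended on that library, while without saline replicate 6 they were -0.24 and -0.37.

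The make-up of that sum differed more than the sum. The 19 A and B genes together held 24.9, 29.9, 18.2 and 27.2 CPM in young serum, 21.6, 14.2 and 32.9 CPM in EV-depleted serum, and 21.1, 10.5, 19.5 and 6.29 CPM in saline. Saline replicates 3 and 6 lay below all 7 serum libraries, while saline replicates 2 and 4 lay within the serum range. The log2 ratio of group means was 0.81 for young serum over saline and 0.68 for EV-depleted serum over saline, and 0.67 and 0.54 without saline replicates 4 and 6. Leaving out saline replicate 6 alone gave 0.56 and 0.43, and leaving out saline replicate 2 gave 1.05 and 0.92. The members and this grouping were chosen with results known, so these ratios carry no test.

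Pcdhgc4 ran the other way. Its share of the gamma sum was 30.0%, 14.8%, 40.2% and 24.4% in the young serum libraries, 34.7%, 46.9% and 13.7% in the EV-depleted serum libraries, and 33.0%, 61.8%, 56.3% and 78.8% in saline. Saline replicates 3, 4 and 6 exceeded every serum library, and saline replicate 2 fell inside the serum range. Because the shares are parts of a whole, a higher share of Pcdhgc4 leaves less for the A and B genes, and all of them rest on how shared reads were divided.

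**Figure D2:**
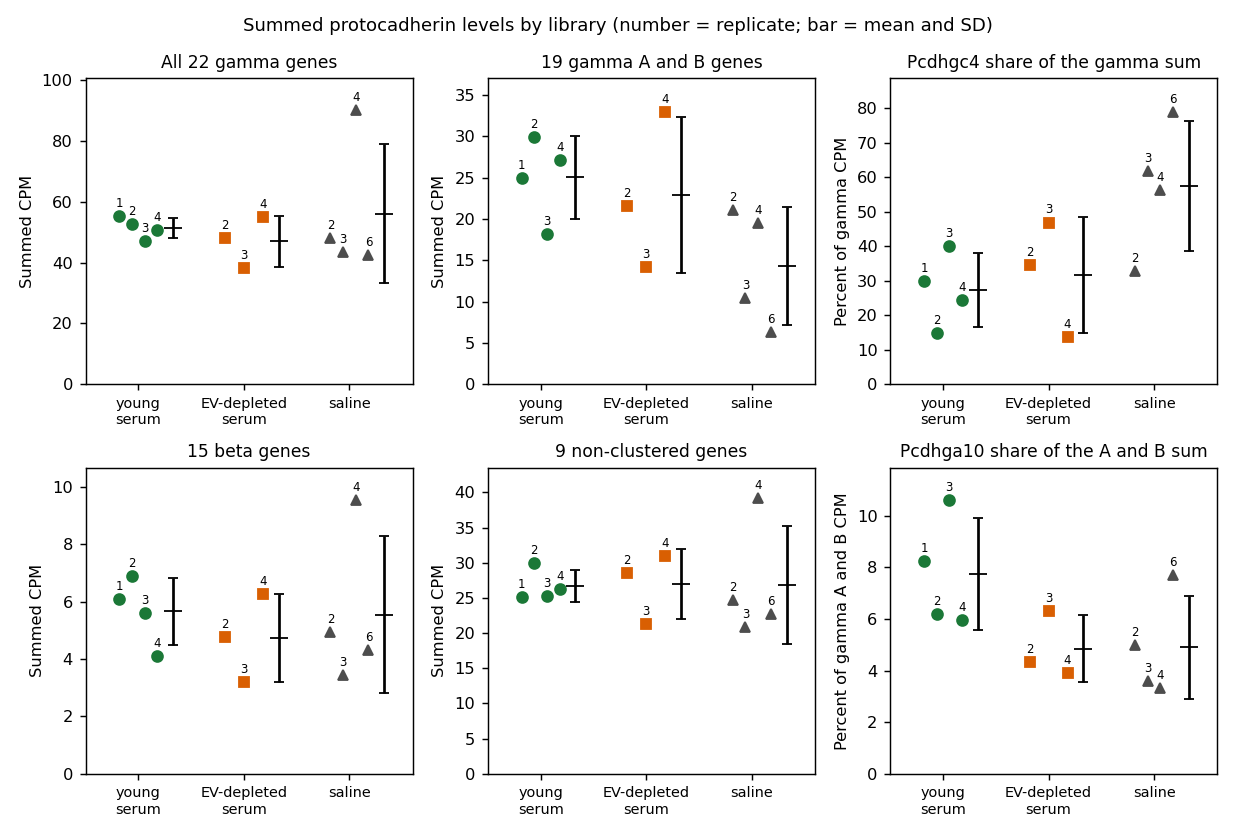
Summed CPM or percent share (vertical axes) in young serum, EV-depleted serum and saline libraries, with replicate numbers beside the points and bars for the mean and SD. The gamma sum overlaps between groups apart from saline replicate 4 at 90.2 CPM, the share of Pcdhgc4 is 13.7% to 46.9% in serum libraries and 33.0% to 78.8% in saline, and saline replicate 4 is also highest for the beta and non-clustered sums.

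In mice, Pcdhgc4 is the gamma isoform needed for the survival of inhibitory neurons and of newborn animals. It measured 16.6, 7.75, 18.9 and 12.4 CPM in young serum, 16.6, 17.9 and 7.54 CPM in EV-depleted serum, and 15.9, 26.8, 50.7 and 33.5 CPM in saline. Group means were 13.9 ± 4.91 CPM in young serum (SD, n = 4), 14.0 ± 5.66 CPM in EV-depleted serum (SD, n = 3) and 31.7 ± 14.6 CPM in saline (SD, n = 4). Saline replicates 3, 4 and 6 were above all serum libraries and saline replicate 2 was below 4 of them. The summed level of 6 macrophage markers was 112, 78.9, 75.6 and 36.9 CPM in young serum, 74.7, 52.0 and 90.8 CPM in EV-depleted serum, and 91.5, 113, 233 and 182 CPM in saline. It put the saline libraries in the same order as Pcdhgc4 did, and so did the adipocyte sum (151, 186, 2684 and 325 CPM). The sum of fibro-adipogenic progenitor markers (368, 387, 637 and 471 CPM) also had this order. The other marker lists examined did not, for example the endothelial sum (240, 193, 310 and 208 CPM). The order did not hold in serum. EV-depleted serum replicate 4 had the highest macrophage, adipocyte (171 CPM) and fibro-adipogenic (529 CPM) sums of its group and the lowest Pcdhgc4. In young serum, replicate 3 had the highest Pcdhgc4 and the highest adipocyte sum (200 CPM). Replicate 1 had the highest macrophage and fibro-adipogenic (577 CPM) sums there. The part of these cell types in the level of Pcdhgc4 was not tested. On the log2(CPM + 1) scale the difference was -1.09 ± 0.37 (SE) for young serum minus saline, given as a description, and -1.09 ± 0.40 (SE) for EV-depleted serum minus saline, with an unadjusted p of 0.0184 and an adjusted p of 0.404 by limma. This does not pass adjustment over all genes. The test uses the saline libraries of the comparison that drew attention to the family, so it is no independent support. Without saline replicates 4 and 6 the young serum difference and the EV-depleted difference (adjusted p = 0.749) were both -0.61. Intact and EV-depleted serum differed by 0.0045 ± 0.40 (SE; adjusted p = 1.0).

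Pcdhgc3 is a C-type isoform that in mouse cortical neurons promotes dendrite branching. Its levels were 13.6, 14.5, 9.83 and 11 CPM in young serum, 9.77, 5.89 and 14.0 CPM in EV-depleted serum, and 11.2, 6.06, 19.8 and 2.63 CPM in saline. The saline range enclosed both serum ranges. Differences were 0.55 ± 0.44 (SE) for young serum minus saline and 0.21 ± 0.48 (SE; adjusted p = 0.842) for EV-depleted serum minus saline. They rested on single saline libraries, and were 0.11 and -0.23 without saline replicate 6 and 0.95 and 0.61 without saline replicate 4. Pcdhgc5, the last gene of the cluster, stood at 0.049, 0.361, 0.0828 and 0.157 CPM in young serum, 0.0309, 0.150 and 0.371 CPM in EV-depleted serum, and 0.0537, 0.0589, 0.159 and 0.0777 CPM in saline. It held fewer than 3 reads in 4 libraries and its groups overlapped.

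Pcdhga10 measured 2.06, 1.85, 1.93 and 1.62 CPM in young serum, 0.935, 0.898 and 1.28 CPM in EV-depleted serum, and 1.05, 0.376, 0.648 and 0.484 CPM in saline. The means were 1.86 ± 0.18 CPM in young serum (SD, n = 4), 1.04 ± 0.21 CPM in EV-depleted serum (SD, n = 3) and 0.639 ± 0.295 CPM in saline (SD, n = 4). All 4 young serum libraries lay above the other 7, and saline replicate 2 lay within the EV-depleted range. The young serum minus saline difference was 0.82 on the log2(CPM + 1) scale and 1.49 on the log2(CPM + 0.1) scale, a description since it drew attention to the gene. EV-depleted serum minus saline was 0.33 ± 0.17 (SE), with an unadjusted p of 0.0772 and an adjusted p of 0.429. Young serum minus EV-depleted serum was 0.49 ± 0.17 (SE), with an unadjusted p of 0.0128 and an adjusted p of 1.0. Both tests share libraries with the comparison that drew attention to the gene. The EV-depleted serum minus saline test uses its saline libraries and the last comparison its young serum libraries, so neither is independent support.

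Within the A and B sum, Pcdhga10 took 8.26%, 6.20%, 10.6% and 5.95% in the young serum libraries, 4.33%, 6.31% and 3.89% in the EV-depleted serum libraries, and 4.98%, 3.60%, 3.32% and 7.69% in saline. All 3 groups overlapped on this measure. By the young serum minus saline difference, Pcdhga10 was number 2 of the 47 members on the log2(CPM + 0.1) scale, behind Pcdhga8 at 1.5. In the other contrasts it was number 12 for EV-depleted serum minus saline and number 2 for young minus EV-depleted serum, where the beta gene Pcdhb16 was first at 1.02. Pcdhga8 and Pcdhb16 were below the filter, and their differences rest on low values. Pcdhga8 had 0.0001 and 0.097 CPM in saline replicates 2 and 6. Pcdhb16 had 0.097 and 0.078 CPM in EV-depleted serum replicates 2 and 3.

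Pcdhga2, another A-type isoform, had 2.37, 2.14, 1.36 and 2.33 CPM in young serum, 2.17, 1.86 and 2.17 CPM in EV-depleted serum, and 1.63, 0.664, 0.964 and 0.585 CPM in saline. The EV-depleted libraries all lay above the saline libraries, while young serum replicate 3 lay below saline replicate 2. The difference was 0.67 ± 0.20 (SE) for EV-depleted serum minus saline, with an unadjusted p of 0.00622 and an adjusted p of 0.371. For young serum minus saline it was 0.65 ± 0.19 (SE), as a description. Pcdhga2 is named as the member with the smallest limma p for a higher level in EV-depleted serum than in saline. That test uses the saline libraries of the comparison that drew attention to the family, so it is no independent support.

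Most other A and B genes shared the direction. On the log2(CPM + 0.1) scale without a filter, 12 of 12 A genes and 6 of 7 B genes had a higher mean in young serum than in saline, as did 43.9% of all rows. The median difference was 0.78 over the A genes, 0.86 over the B genes and -0.06 over all rows. For EV-depleted serum minus saline, 11 of 12 A genes and 7 of 7 B genes were higher, set beside 45.5% of all rows, with medians of 0.72, 0.85 and -0.04. Both comparisons use the same saline libraries. Since these genes share exons and libraries, they are not separate observations.

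The size of that pattern moved with the saline libraries. Saline replicate 6 held the lowest value of 13 of the 19 A and B genes. Without it, 15 of 19 were higher in young serum with a median of 0.45, and for EV-depleted serum 15 of 19 were higher with a median of 0.41. Without saline replicates 4 and 6, 17 of 19 were higher in each comparison, beside 55.8% and 58.1% of all rows. The medians were 0.60 for young serum and 0.57 for EV-depleted serum. In that setting 13 of 15 beta genes (median 0.37) and 8 of 9 non-clustered genes (median 0.32) were also higher in young serum. For EV-depleted serum these counts were 9 of 15 (median 0.04) and 6 of 9 (median 0.27). The direction for young serum was therefore not particular to the A and B genes there. The part of slow fibre or adipocyte RNA in these differences was not tested.

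**Figure D3:**
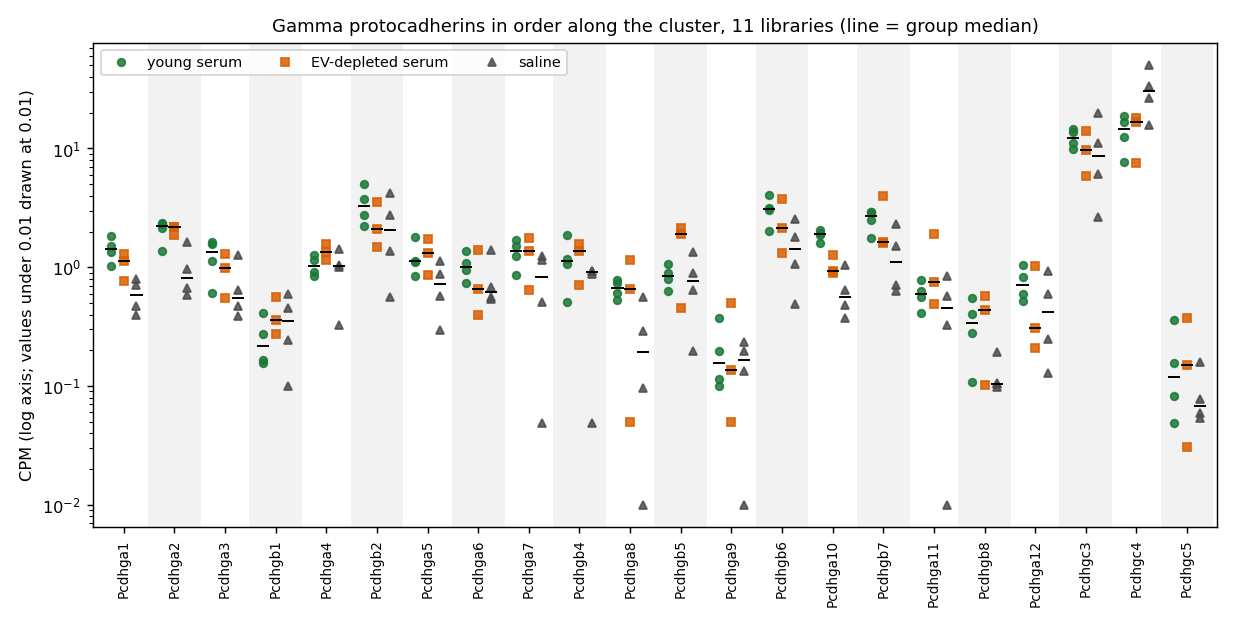
CPM on a log axis for the 22 gamma genes in order along the cluster, with young serum, EV-depleted serum and saline side by side and a line at each group's median. Pcdhgc3 and Pcdhgc4 are the highest rows, and the saline points of Pcdhgc4 reach 50.7 CPM while those of the A and B genes spread from low values into the range of the serum points.

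Between young and EV-depleted serum the gamma genes showed no common direction. The log2 ratio of the sums was 0.13, 13 of 22 genes had a higher mean in young serum, and the median difference was 0.07, with 49.2% of all rows higher. Pcdhga11, at 0.559, 0.632, 0.415 and 0.783 CPM in young serum and 0.758, 0.490 and 1.91 CPM in EV-depleted serum, had the lowest difference of the 47 members at -0.55. EV-depleted serum replicate 4, which held the highest value of 7 of the 19 A and B genes, set that difference, and the other EV-depleted libraries lay inside the young serum range.

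Beta genes were low. Their 15 rows summed to 6.09, 6.89, 5.60 and 4.11 CPM in young serum, 4.76, 3.19 and 6.27 CPM in EV-depleted serum, and 4.93, 3.45, 9.55 and 4.30 CPM in saline. The groups overlapped, with saline replicate 4 highest. The log2 ratio was 0.03 for young serum over saline, -0.23 for EV-depleted serum over saline and 0.26 for young over EV-depleted serum, and without saline replicate 4 the first of these were 0.43 and 0.17. In young serum 9 of 15 beta genes were higher than in saline (median difference 0.16), beside 43.9% of all rows, and in EV-depleted serum 4 of 15 (median -0.16), beside 45.5%. Without saline replicate 4 these counts were 12 of 15 (median 0.41) and 9 of 15 (median 0.13), beside 53.7% and 55.7% of all rows, so the direction for EV-depleted serum turned on that library.

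Pcdhb17 and Pcdhb22 were the highest beta genes by CPM. Pcdhb17 had 0.968, 1.18, 1.02 and 0.690 CPM in young serum, 1.24, 0.675 and 1.01 CPM in EV-depleted serum, and 0.864, 0.709, 2.10 and 0.654 CPM in saline. The groups overlapped, with saline replicate 4 highest and the other saline libraries between 0.654 and 0.864 CPM. Its differences were -0.04 ± 0.21 (SE) for young serum minus saline and -0.04 ± 0.22 (SE) for EV-depleted serum minus saline (adjusted p = 0.924 and 0.949). Pcdhb22 had 0.860, 0.741, 0.860 and 0.460 CPM in young serum, 0.510, 0.545 and 0.828 CPM in EV-depleted serum, and 0.660, 0.415, 1.79 and 0.905 CPM in saline. It too was highest in saline replicate 4, which held the top value of 6 of the 15 beta genes. The other 13 beta genes averaged 4.72 to 26.7 reads per library.

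Pcdha4, the alpha gene of the table, was close to absent from the counts. It held fewer than 3 reads in 9 of 11 libraries, including all 4 young serum and all 3 EV-depleted serum libraries. Saline replicate 2, at 0.0878 CPM, and saline replicate 4, at 0.210 CPM, were above that floor. Its values in young serum were 0.0001, 0.000101, 0.000555 and 0.0229 CPM, in EV-depleted serum 0.0001 CPM in every library, and in the remaining saline libraries 0.00188 and 0.0001 CPM. The value 0.0001 is an offset in the table and stands for no reads, so no ratio between groups was formed. Expression of Pcdha4 below about 3 reads was not detectable at this depth.

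The non-clustered genes summed to 25.2, 30.0, 25.3 and 26.2 CPM in young serum, 28.6, 21.4 and 31.0 CPM in EV-depleted serum, and 24.7, 20.9, 39.3 and 22.8 CPM in saline. Again saline replicate 4 was highest and the groups overlapped, with log2 ratios of -0.01 for young serum over saline and 0.0037 for EV-depleted serum over saline. Without saline replicate 4 these ratios were 0.23 and 0.24.

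Pcdh1, in humans an adhesion protein of airway epithelium and a receptor for some hantaviruses, was the most abundant of these rows. It had 10.8, 12.9, 11.7 and 12.1 CPM in young serum, 12.4, 10.4 and 10.04 CPM in EV-depleted serum, and 11, 10.7, 17.1 and 11.1 CPM in saline. Except in saline replicate 4 it varied little, and its differences were -0.04 ± 0.16 (SE; adjusted p = 0.886) for young serum minus saline and -0.15 ± 0.17 (SE; adjusted p = 0.668) for EV-depleted serum minus saline.

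Pcdh12, known as vascular endothelial cadherin 2 for its place at endothelial junctions, had 3.16, 4.48, 3.34 and 4.19 CPM in young serum, 5.93, 4.49 and 5.67 CPM in EV-depleted serum, and 4.29, 2.77, 6.74 and 3.42 CPM in saline. All young serum libraries lay below the EV-depleted ones, the nearest by under 0.1 CPM, and the saline libraries spanned both. Young serum minus EV-depleted serum was -0.41 ± 0.23 (SE; unadjusted p = 0.0982, adjusted p = 1.0). The summed level of 6 endothelial markers was 210, 264, 218 and 228 CPM in young serum, 259, 190 and 256 CPM in EV-depleted serum, and 240, 193, 310 and 208 CPM in saline, so it overlapped between groups and was highest in the library where Pcdh12 was highest. Pcdh1 and Pcdh12, which lie near each other on chromosome 18, had a Pearson correlation of 0.86 over the 11 libraries after group means were taken out. Saline replicate 4 had the highest level of both.

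Pcdh19, a gene mutated in an X-linked human epilepsy, had 4.0, 5.93, 4.51 and 4.11 CPM in young serum, 4.30, 2.96 and 6.54 CPM in EV-depleted serum, and 4.11, 2.93, 4.59 and 2.59 CPM in saline. The ranges overlapped, and its differences were 0.32 ± 0.22 (SE; adjusted p = 0.384) for young serum minus saline and 0.27 ± 0.24 (SE; adjusted p = 0.585) for EV-depleted serum minus saline. Without saline replicate 6 they were 0.21 and 0.16. Pcdh7, which in mice takes part in osteoclast formation, had 3.48, 2.83, 2.77 and 2.20 CPM in young serum, 2.70, 1.2 and 3.12 CPM in EV-depleted serum, and 2.36, 2.05, 5.67 and 2.29 CPM in saline. Saline replicate 4 was again far above the rest. Differences of Pcdh7 were -0.03 ± 0.27 (SE; adjusted p = 0.958) for young serum minus saline and -0.26 ± 0.29 (SE; adjusted p = 0.666) for EV-depleted serum minus saline. Pcdh18 ranged from 1.43 to 3.44 CPM over the 11 libraries, with its lowest and highest values both in EV-depleted serum. Pcdh17, Pcdh20, Pcdh9 and Pcdh10 averaged 0.625, 0.378, 0.169 and 0.138 CPM.

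Pcdh7, Pcdh18 and Pcdh19 moved together over the 11 libraries once group means were taken out. Pearson correlations were 0.81 for Pcdh7 with Pcdh18, 0.72 for Pcdh7 with Pcdh19 and 0.69 for Pcdh18 with Pcdh19. Other members also moved together: the 10 pairs of tested non-clustered genes had a median of 0.69, and Pcdh7 with the beta gene Pcdhb17 reached 0.89. Pcdh1 correlated less with these genes, at 0.64 with Pcdh7, 0.51 with Pcdh18 and 0.40 with Pcdh19. Each point is a library with its own depth and cell content, and no test is attached. The promoters of Pcdh7, Pcdh18 and Pcdh19 are shown because these are the tested members that lie outside the chromosome that holds the clusters. Each sequence is the 120 bases before the GENCODE start, from RefSeq on GRCm38.p6, at chr3:49757326-49757445 (minus strand) for Pcdh18, chrX:133688988-133689107 (minus strand) for Pcdh19 and chr5:57717847-57717966 (plus strand) for Pcdh7. Capitals mark CCCTC, the letters for which CTCF is named, or its reverse complement GAGGG, overlapping matches included.
Pcdh18: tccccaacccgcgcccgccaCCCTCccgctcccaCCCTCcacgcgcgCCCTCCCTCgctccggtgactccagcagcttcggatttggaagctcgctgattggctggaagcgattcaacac
Pcdh19: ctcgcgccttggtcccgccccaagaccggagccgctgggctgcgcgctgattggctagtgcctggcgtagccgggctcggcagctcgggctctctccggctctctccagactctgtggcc
Pcdh7: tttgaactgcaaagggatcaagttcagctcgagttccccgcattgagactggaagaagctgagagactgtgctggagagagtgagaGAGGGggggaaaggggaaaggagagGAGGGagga
Pcdh18 held 4 matches, Pcdh7 held 2 and Pcdh19 held 0, and 41.1% of 32851 windows of the same length, taken before RefSeq starts, held at least 1. The TATA box letters TATAAA, on either strand, were in none of these and in 6.34% of the windows. GC content was 67.5% for Pcdh18, 71.7% for Pcdh19 and 54.2% for Pcdh7, beside a median of 54.2% over all windows, and CpG pairs numbered 12, 12 and 2, beside a median of 3. The RefSeq start of Pcdh7 lies 114 bases after its GENCODE start, so its window barely overlaps the one before its RefSeq start. Its values are therefore set beside windows placed by another rule. A match is only a match of letters and says nothing about binding.

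**Figure D4:**
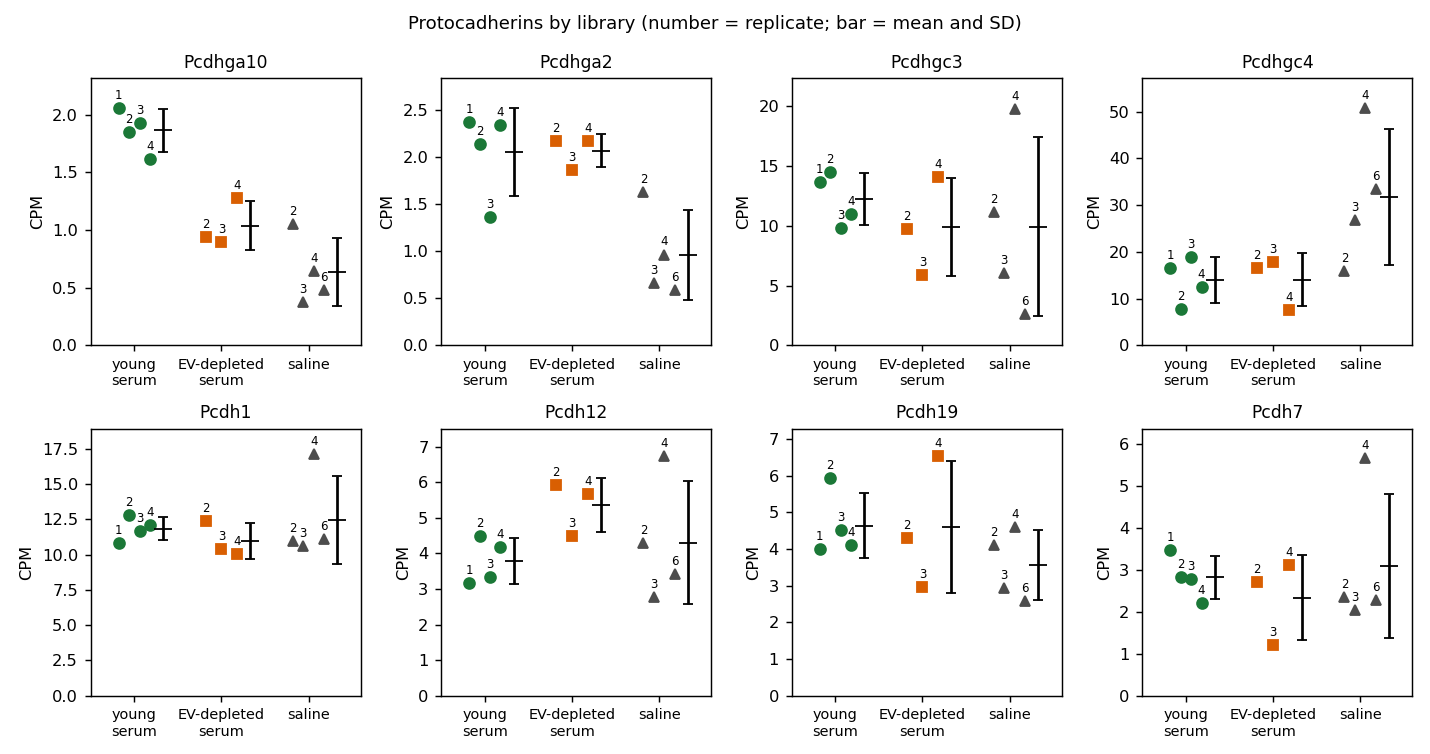
CPM in each library for Pcdhga10, Pcdhga2, Pcdhgc3, Pcdhgc4, Pcdh1, Pcdh12, Pcdh19 and Pcdh7, with replicate numbers and bars for mean and SD. Young serum lies above the other groups for Pcdhga10, 3 of 4 saline libraries lie above all serum libraries for Pcdhgc4, and saline replicate 4 stands apart for Pcdh1 and Pcdh7.

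No member passed limma at an adjusted p of 0.05 in any of the 3 comparisons, and neither did any of the 13187 genes tested (0% called in each). At an unadjusted p under 0.05, young serum against saline had 5 members higher of 21 tested (Pcdhga1, Pcdhga10, Pcdhga2, Pcdhgb6 and Pcdhgb7), beside 10.5% of all genes tested, and 1 lower (Pcdhgc4), beside 11.4%. These counts come from the comparison that drew attention to the family and are given without a reading. EV-depleted serum against saline had 1 member higher (Pcdhga2), beside 6.49% of all genes, and 1 lower (Pcdhgc4), beside 5.59%, shares near the background. Young against EV-depleted serum had 1 higher (Pcdhga10), beside 0.478%, the gene that drew attention, and 0 lower, beside 1.75%.

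Complete separation of groups was counted over all rows. For young serum against saline, 2 of the 47 members lay wholly above (Pcdhga1 and Pcdhga10), beside 4.9% of all rows, and 0 wholly below, beside 5.24%. For EV-depleted serum against saline 1 lay wholly above (Pcdhga2), beside 2.91%, and 0 below, beside 4.15%. For young against EV-depleted serum 1 lay above (Pcdhga10), beside 1.93%, and 1 below (Pcdh12), beside 3.7%. In the comparisons with EV-depleted serum, 1 of 47 in a direction is near the share of all rows.

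**Figure D5:**
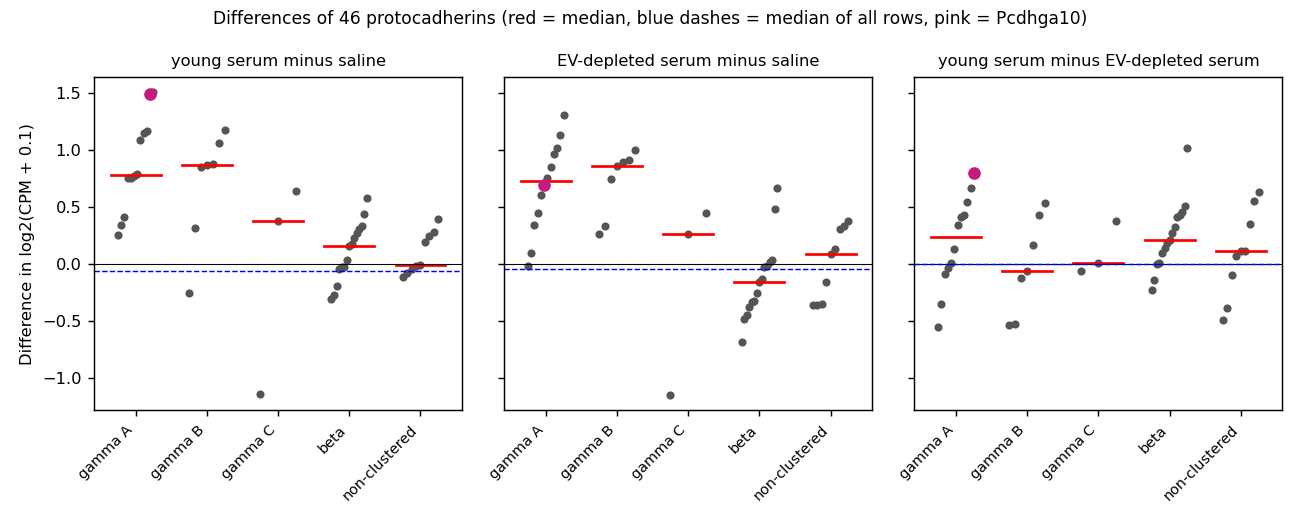
Differences of group means on the log2(CPM + 0.1) scale for 46 members (Pcdha4 not drawn), 1 panel per comparison, with red lines at group medians and a blue dashed line at the median of all 18269 rows. Gamma A and B genes centre at 0.78 and 0.86 for young serum minus saline and at 0.72 and 0.85 for EV-depleted serum minus saline, and beta and non-clustered genes centre between -0.16 and 0.16 in both.

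Within groups, most gamma rows varied together across libraries. After group means were taken out, the 40 pairs of a tested A gene with a tested B gene had a median Pearson correlation of 0.68 over 11 libraries, and A and B genes with Pcdhgc3 a median of 0.75. The level of correlation was not particular to the gamma cluster, since pairs of non-clustered genes had a median of 0.69, and A and B genes with non-clustered genes a median of 0.46 and a highest value of 0.88. With Pcdhgc4 all 13 A and B genes correlated negatively, from -0.67 to -0.10 with a median of -0.41. Pcdhga10 correlated with Pcdhgb6 at 0.82 and with Pcdhga2 at 0.73. These rows share libraries and exons, and their shared reads are divided among them. The correlations above were taken on log2(CPM + 0.1). Genes outside the family were compared with Pcdhga10 on log2(CPM + 1), again with group means taken out. Among the most like it were Ccdc43 (0.96), Exoc6, a subunit of the exocyst complex (0.95), Nap1l4, a histone chaperone (0.95), and the predicted gene Gm7334 (0.94). They were picked as the highest of all tested genes outside the family, so their values cannot be set against those of members.

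Single libraries set many of the extremes. Saline replicate 4 held the highest value of 15 of the 47 members, EV-depleted serum replicate 4 of 12 and young serum replicate 2 of 8. Saline replicate 6 held the lowest value of 19 members and saline replicate 3 of 9.

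Of 45 genes known to act on or with cadherins of this kind, 44 were in the table and 37 were tested, and 0 passed adjustment in any comparison. Among 17 tested genes of chromatin looping and methylation, the median difference was 0.29 for young serum minus saline and 0.29 for EV-depleted serum minus saline, beside -0.02 and -0.0025 over all genes. Both comparisons use the same saline libraries. For EV-depleted serum 0 of the 17 (0%) were higher at an unadjusted limma p under 0.05, beside 6.49% of all genes tested. For young serum 2 of the 17 (11.8%) were higher at that threshold, a share near the 10.5% of all genes tested. These were Mau2, a subunit of the cohesin loader, at 23.1 ± 3.08 CPM in young serum and 14.5 ± 5.66 CPM in saline (SD, n = 4 each), and Pds5b, a cohesin regulator, at 35.6 ± 3.09 CPM in young serum and 26.3 ± 7.34 CPM in saline (SD, n = 4 each). Their log2 differences were 0.71 ± 0.31 and 0.46 ± 0.20 (SE; adjusted p = 0.212 and 0.220 by limma). Saline replicate 6 had the lowest level of both, 7.32 CPM for Mau2 and 19 CPM for Pds5b, and without it the differences were 0.44 and 0.32.

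Among 15 tested signalling genes, whose medians were 0.13, 0.06 and 0.05 in the 3 comparisons, Brk1 was lower at an unadjusted p under 0.05 in both comparisons with saline. This was 1 of 15 (6.67%) in each, beside 11.4% of all genes for young serum and 5.59% for EV-depleted serum, so these shares were below or near the background. It encodes a subunit of the WAVE complex, which drives actin branching. It had 38.9, 33.2, 38.5 and 30.5 CPM in young serum, 40.3, 40.8 and 33.3 CPM in EV-depleted serum, and 41.7, 49.1, 61.0 and 77.4 CPM in saline. Every serum library was below every saline library, with differences of -0.65 ± 0.18 (SE; unadjusted p = 0.00305, adjusted p = 0.18) for young serum and -0.54 ± 0.19 (SE; unadjusted p = 0.0146, adjusted p = 0.403) for EV-depleted serum. Without saline replicates 4 and 6 they were -0.36 and -0.25. For young serum minus saline 1 of 15 (6.67%) was higher at an unadjusted limma p under 0.05, beside 10.5% of all genes tested. This was Wnk1, a kinase of ion transport. It averaged 313 ± 27.9 CPM in young serum and 224 ± 55.8 CPM in saline (SD, n = 4 each; adjusted p = 0.189 by limma). Its log2 difference was 0.51, and 0.34 without saline replicate 6.

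Of the other large cadherins and their modifiers, 5 were tested, with medians of 0.40, 0.20 and 0.20. Medians over all genes were -0.02, -0.0025 and -0.0049. At an unadjusted limma p under 0.05, 1 of 5 (20%) was higher for young serum minus saline, beside 10.5% of all genes tested. For EV-depleted serum minus saline 1 of 5 was lower, beside 5.59%. For young minus EV-depleted serum 1 of 5 was higher, beside 0.478%. With 5 genes tested, these shares rest on single genes. Celsr2, a cadherin with a receptor-like membrane part, averaged 23.1 ± 4.07 CPM in young serum and 16.1 ± 6.44 CPM in saline (SD, n = 4 each; adjusted p = 0.206 by limma), a log2 difference of 0.55 that was 0.35 without saline replicate 6. Fjx1, the mouse relative of the fly kinase Four-jointed that acts on Fat cadherins, had 2.42, 1.24, 1.36 and 1.18 CPM in young serum, 0.899, 0.571 and 0.803 CPM in EV-depleted serum, and 1.45, 1.81, 1.73 and 1.11 CPM in saline. The EV-depleted libraries lay below the other 8. Its differences were -0.52 ± 0.19 (SE; unadjusted p = 0.0197, adjusted p = 0.404) for EV-depleted serum minus saline and 0.51 ± 0.19 (SE; unadjusted p = 0.0202, adjusted p = 1.0) for young minus EV-depleted serum.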

How the data were processed

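RNA of 11 tibialis anterior libraries was analysed from a table of CPM (counts per 1e+06), to which the authors had added an offset of 0.0001 as read from the values, and which was scaled to 1e+06 per library. The deposited TPM table equals CPM divided by genomic span, introns included, and gave only coordinates. Build mm10, FastQC, STAR and DESeq2 are named per the submitters' processing notes, with no version, role or order. Counting and strand are not given in the sources used here. Deposited starts equalled GENCODE M21 for 99.4% of 17893 symbols, and ends are the deposited ones minus 1.

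The 13187 genes that reached 1 CPM in 3 or more libraries were fitted as log2(CPM + 1) with limma 3.58.1 in R 4.3.3: 3 groups in 1 model, eBayes with a trend, two-sided tests, Benjamini-Hochberg adjustment at 0.05 over all genes. A pseudocount of 1 understates changes of low genes. A fit without a filter on log2(CPM + 0.1) gave all 47 members a value. Of other values from 0.01 to 1 CPM, 71.8% to 79.0% per library were whole reads within 0.1 reads, too few for a count model. The code was tested on simulated data. Read floors of 3 cover counting error only. Sums of CPM carry no test.

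Values by library are given for Pcdhga10, the 4 highest non-clustered genes, the 2 highest of each cluster, listed C-type genes, and the smallest p per direction and comparison. Partner genes with an unadjusted p under 0.05 and the 5 genes most correlated with Pcdhga10 were also to be named, of which 1 is not reported here. The members, lists and comparisons were chosen with earlier results of these data known. Alternatives were the pseudocount, filter, median-ratio rescaling, trend, groups in the model, a replicate block and leaving out libraries. Promoter windows were read from a RefSeq table in which 7 members matched. Figures were drawn with matplotlib 3.10.9 in Python 3.11.15.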

Additional observations from a re-analysis of the deposited data

Results flagged for a closer look

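In 5 of 32 groups of 4 libraries tested, 1 library stood apart from the others by Dixon's criterion. That is, its gap to the nearest library, divided by the range of the group, was too large. Chance gives about 1 in 20 for independent groups. The 32 groups are genes and sums that share libraries, so 5 of 32 cannot be read against that rate. In saline, replicate 4 was high for Pcdh1 (17.1 CPM against 10.7 to 11.1 CPM, gap over range 0.933), for Pcdh7 (5.67 CPM against 2.05 to 2.36 CPM, 0.915), for Pcdhb17 (2.10 CPM against 0.654 to 0.864 CPM, 0.855) and for the sum of gamma genes (90.2 CPM against 42.5 to 48.2 CPM, 0.881). The same library had the highest summed adipocyte and macrophage marker levels, 2684 and 233 CPM, whose part in these values was not tested. In young serum, replicate 4 was apart for Pcdha4 (0.0229 CPM, gap over range 0.980), a value of less than 3 reads.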

How the results depend on the processing

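The count of protocadherins passing adjustment was 0 under every other setting in all 3 comparisons, except that leaving out single libraries gave 0 to 2 for young serum against saline. The count of 2 of 21 members (Pcdhga10 and Pcdhga2) came without saline replicate 2, when 253 of all genes passed. That library had the highest saline level of both genes, 1.05 CPM for Pcdhga10 and 1.63 CPM for Pcdhga2. Pcdhga10 was picked from this same comparison, so the count is a description and no support. The cause was not tested. Alternatives chosen after seeing the data were the gamma sum without Pcdhgc4 (log2 ratio 0.62 for young serum over saline and 0.44 for EV-depleted serum over saline), the A and B genes alone (0.81 and 0.68), the fit of all members on log2(CPM + 0.1), and the groups, with the partner genes, without saline replicates 4 and 6.

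Several single differences changed sign. Leaving out 1 library in turn gave ranges for young serum minus saline of -0.10 to 0.11 for Pcdh1, -0.25 to 0.10 for Pcdh12, -0.14 to 0.23 for Pcdh7 and -0.13 to 0.17 for Pcdhb17. For EV-depleted serum minus saline they were -0.24 to 0.0017 for Pcdh1, -0.44 to 0.012 for Pcdh7, -0.13 to 0.17 for Pcdhb17 and -0.23 to 0.61 for Pcdhgc3. For young minus EV-depleted serum they were -0.18 to 0.29 for Pcdh19, -0.042 to 0.41 for Pcdh7, -0.12 to 0.092 for Pcdhb17, -0.36 to 0.24 for Pcdhgc4 and -0.073 to 0.098 for Pcdhga2. Without saline replicates 4 and 6, young serum minus saline was 0.12 for Pcdh1, 0.091 for Pcdh12, 0.24 for Pcdh7 and 0.13 for Pcdhb17, and EV-depleted serum minus saline 0.013, 0.010 and 0.14 for Pcdh1, Pcdh7 and Pcdhb17. Pcdhb17 in young minus EV-depleted serum was 0.00016 with a pseudocount of 0.1 and 0.0051 after rescaling. Rescaling moved the median of all genes by at most 0.03 in size.

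Same-numbered libraries had correlations of deviations from -0.28 to 0.30 and were not treated as pairs. With the replicate block 0 members passed, and 6 of all genes passed for EV-depleted serum against saline. The block moved Pcdhgc3 to 0.058 for young serum minus saline, turned it to -0.23 for EV-depleted serum minus saline and Pcdhgc4 to -0.10 for young minus EV-depleted serum, and changed no call. Depth limits genes below about 1 CPM, 26 of 47 members.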
